A study of Homo sapiens with 10 samples.

Results

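The K non-rep KO list of methylated DNA peaks was set against the WT list, in HEK293T cells. All peaks on chromosomes 1 to 22 and X were taken, which gave 53396 K non-rep KO peaks and 30732 WT peaks, of 284960 peaks in the 5 lists used. A peak counted as shared when at least 1 bp of it lay under a peak of the other list. HEK293T is a human embryonic kidney cell line. The study holds 10 samples, an immunoprecipitated (IP) DNA sample and an input sample for each of 5 conditions, K non-rep KO, K rep KO, KD, EV and WT. K non-rep KO is by its name a knockout and WT wild type, but the labels do not spell out K, non-rep, rep or EV. They give neither the deleted bases nor whether the knockout is a single clone. The design calls the knockdown KCNQ1OT1_K, after the long noncoding RNA KCNQ1OT1, and does not say whether K has the same meaning in the knockouts. Each condition gave 1 peak list, so no difference below has a replicate check, no test was run, and every interval covers counting error only.

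In methylated DNA immunoprecipitation (MeDIP), sonicated DNA is pulled down with an antibody to 5-methylcytosine (5mC) and sequenced beside untreated input. Methylation in human cells lies mainly on CpG dinucleotides, and MeDIP captures stretches that hold several methylated CpGs. Gene bodies and repeats are usually methylated, whereas CpG-rich promoters of active genes usually are not. KCNQ1OT1 is transcribed from within KCNQ1 on the opposite strand, and is known for silencing neighbouring imprinted genes such as CDKN1C on the chromosome inherited from the father.

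The lists hold no RNA and no sequence, so neither the cell line nor the knockout could be checked on them. The peaks of the K non-rep KO list carry C-KO in their names, and those of the K rep KO list L-KO, so the assignment rests on the names of the lists. KCNQ1OT1 itself (GRCh38 chr11:2608328-2699994) held 0 peaks in K non-rep KO against 1 in WT, counting the gene and 2 kb on either side. That WT peak lay at chr11:2654136-2654510 with a fold enrichment of 3.40 over background. KCNQ1 (chr11:2445008-2849105), the potassium channel gene around it, held 11 peaks in K non-rep KO against 3 in WT, and 1 peak of each list was shared. Its highest K non-rep KO peak, chr11:2463773-2464268, had a fold enrichment of 5.16, and its highest WT peak, chr11:2473834-2474202, had 4.68. CDKN1C, a cell cycle inhibitor gene, and IGF2, an imprinted growth factor gene, held 0 peaks in either list. H19, an imprinted noncoding RNA gene, held 1 in K non-rep KO against 0 in WT. EV held 45 peaks in KCNQ1, 6 in IGF2, 3 in H19, 2 in KCNQ1OT1 and 0 in CDKN1C.

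The sequences of 4 promoters show windows that a peak of either list overlapped in whole or in part, while the other list had no peak there. Each window runs from 250 bases before to 50 after a gene's annotated start, in RefSeq sequence of GRCh38.p14, and capitals mark CpG. BARHL2, a homeobox transcription factor gene of neural development (chr1:90717253-90717552, minus strand), TIAM2, a gene for an activator of Rac GTPases (chr6:154995065-154995364, plus strand), and KHDC1L (chr6:73225447-73225746, minus strand) had a K non-rep KO peak and no WT peak. ZNF585B, a zinc finger gene (chr19:37210487-37210786, minus strand), had a WT peak and no K non-rep KO peak.
BARHL2: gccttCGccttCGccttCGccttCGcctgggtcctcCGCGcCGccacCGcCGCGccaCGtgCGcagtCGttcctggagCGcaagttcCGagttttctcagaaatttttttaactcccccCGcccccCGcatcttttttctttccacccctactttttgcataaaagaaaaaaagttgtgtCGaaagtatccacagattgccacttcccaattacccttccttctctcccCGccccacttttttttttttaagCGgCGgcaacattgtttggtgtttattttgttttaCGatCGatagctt
TIAM2: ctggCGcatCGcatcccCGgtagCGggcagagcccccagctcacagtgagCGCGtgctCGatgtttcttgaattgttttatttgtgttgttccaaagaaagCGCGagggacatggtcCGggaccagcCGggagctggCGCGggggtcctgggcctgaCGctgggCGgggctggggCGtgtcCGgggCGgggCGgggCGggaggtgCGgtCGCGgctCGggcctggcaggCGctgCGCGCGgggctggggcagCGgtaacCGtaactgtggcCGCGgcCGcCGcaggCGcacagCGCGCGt
KHDC1L: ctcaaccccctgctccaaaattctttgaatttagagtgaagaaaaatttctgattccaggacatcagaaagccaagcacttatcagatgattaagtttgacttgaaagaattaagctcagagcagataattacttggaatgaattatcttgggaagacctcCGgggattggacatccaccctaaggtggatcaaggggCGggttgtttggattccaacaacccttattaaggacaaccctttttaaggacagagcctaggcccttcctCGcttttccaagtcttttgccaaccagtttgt
ZNF585B: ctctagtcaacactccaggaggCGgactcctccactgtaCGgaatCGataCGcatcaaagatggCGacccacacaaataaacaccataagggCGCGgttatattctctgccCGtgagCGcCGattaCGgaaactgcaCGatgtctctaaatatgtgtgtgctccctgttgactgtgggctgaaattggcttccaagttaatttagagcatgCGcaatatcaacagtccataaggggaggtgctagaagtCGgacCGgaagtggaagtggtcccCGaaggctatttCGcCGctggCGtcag
The windows differ widely in CpG number, with 23 in BARHL2, 38 in TIAM2, 3 in KHDC1L and 19 in ZNF585B. These numbers are for whole windows, and the peaks at BARHL2 and TIAM2 covered only the end part of theirs. Most CpGs of these windows lay outside those peaks. At least 1 CG was found in 98.1% of all 22132 windows searched, on either strand since the dinucleotide reads the same both ways.

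K non-rep KO had more and narrower peaks than WT. The 53396 K non-rep KO peaks against 30732 WT peaks gave a ratio of 1.74 (95% interval 1.71 to 1.76), while the peaks covered 39.6 Mb in K non-rep KO against 31.2 Mb in WT, a ratio of 1.27. Peaks were 506 bp wide at the median in K non-rep KO (quartiles 362 and 858) and 748 bp in WT (456 and 1325). Peaks of 2500 bp or more numbered 1085 in K non-rep KO against 1311 in WT. The median fold enrichment was 4.44 in K non-rep KO against 4.08 in WT. The number of fragments piled up at a summit, recovered from each peak's deposited fold enrichment and p-value, was 10 at the median in K non-rep KO (quartiles 8 and 13) and 14 in WT (10 and 24). The libraries behind the lists also differed in estimated depth, since the IP depth of K non-rep KO was 0.848 times that of WT and its input depth 1.46 times that of WT. Their part in the ratio of peaks was not tested. The ratio to WT was also above 1 in other lists, at 1.92 for K rep KO and 2.86 for EV, and K non-rep KO over EV gave 0.608. When both lists were cut to equal length by p-value, the covered length of K non-rep KO was 0.883 times that of WT.

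Of the K non-rep KO peaks, 18902 (35.4%, Wilson 95% interval 35.0 to 35.8) were shared, and of the WT peaks 18416 (59.9%, 59.4 to 60.5). The unshared peaks, 34494 in K non-rep KO against 12316 in WT, were small. In K non-rep KO they had a median width of 420 bp and a pileup of 9, against 962 bp and 15 for its shared peaks. In WT the unshared peaks had a median width of 519 bp and a pileup of 11, against 1016 bp and 19 for its shared peaks. Shared peaks made up 56.0% of the covered length in K non-rep KO against 73.2% in WT. Of the peaks of 2500 bp or more, 11 in K non-rep KO against 49 in WT were unshared.

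**Figure D1:**
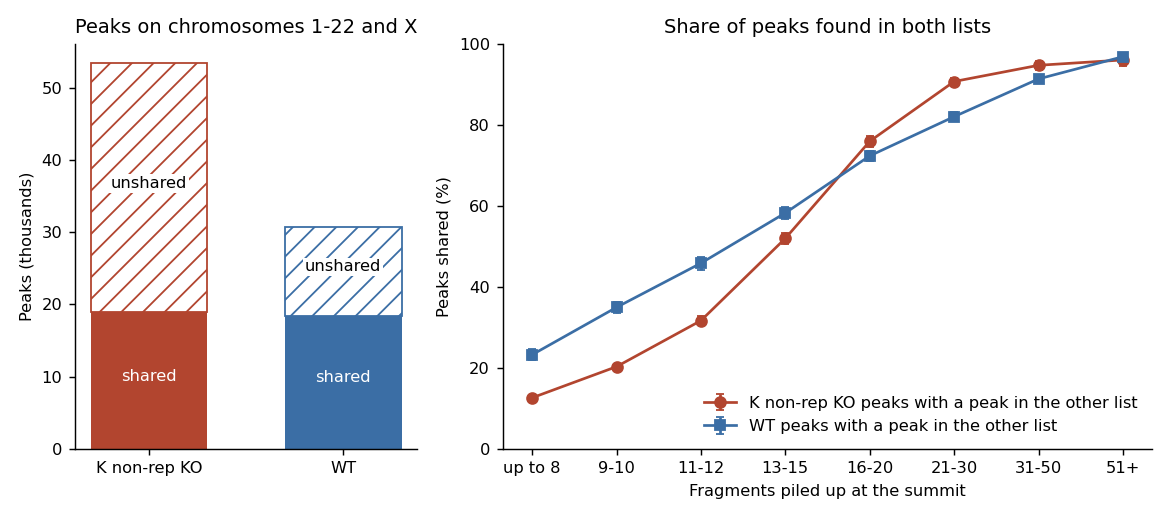
Left, number of peaks (in units of 1000) in the K non-rep KO and WT lists, split into shared (filled) and unshared (hatched). Right, the share of peaks (%) that overlapped the other list, by the number of fragments at the summit, with Wilson 95% intervals; it climbs from 12.6% in K non-rep KO against 23.2% in WT at up to 8 fragments to 96.1% in K non-rep KO against 96.9% in WT at 51 or more.

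Whether a peak was shared went with its size, as the plot of shares by fragment number shows. At 13 to 15 fragments, 52.0% of the K non-rep KO peaks and 58.3% of the WT peaks were shared. At 21 to 30 fragments the shares were 90.7% in K non-rep KO against 82.1% in WT. By width, 12.6% of K non-rep KO peaks and 34.0% of WT peaks of 301 to 400 bp were shared, and at 2500 bp or more 99.0% of K non-rep KO peaks and 96.3% of WT peaks. An unshared K non-rep KO peak lay at a median of 14.7 kb from the nearest WT peak, and 7.29% lay within 1 kb. An unshared WT peak lay at a median of 5.65 kb from the nearest K non-rep KO peak, and 16.0% lay within 1 kb.

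Where both lists had a peak, the peaks were much alike. There were 17945 shared regions, and 16769 of them (93.4%) held 1 peak of each list. In these the median width was 965 bp in K non-rep KO against 982 bp in WT, and the summits lay 145 bp apart at the median. Fold enrichment was higher in K non-rep KO in 59.9% of shared regions, with a median log2 ratio of 0.16 (0.14 to 0.17) and quartiles of -0.25 and 0.57. The median pileup was 15 in K non-rep KO against 19 in WT, with a median ratio of 0.786 that became 0.926 after division by the IP depth ratio. The local background under the summits had a median ratio of 0.641, so the higher fold enrichment in K non-rep KO stood on fewer fragments over a lower background.

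The other lists held many of the unshared regions as well. Of 32955 regions with a K non-rep KO peak and no WT peak, 30.9% had a peak in K rep KO, 27.4% in KD and 44.2% in EV. Of 11406 regions with a WT peak and no K non-rep KO peak, the shares were 33.4% in K rep KO, 26.6% in KD and 41.0% in EV. Regions with peaks of both lists, 17891 in number, were found in K rep KO in 83.2% of cases and in EV in 87.2%. A peak in none of the other 3 lists was the case for 40.2% of the regions of K non-rep KO alone and for 40.9% of those of WT alone.

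K non-rep KO peaks lay more often in genes than WT peaks. A protein-coding gene with 2 kb on either side held 56.9% of the K non-rep KO peaks and 46.1% of the WT peaks. The difference came with the unshared peaks, of which 63.7% lay in such a gene region in K non-rep KO against 48.0% in WT, beside 44.5% of the shared K non-rep KO peaks and 44.9% of the shared WT peaks. The difference over all peaks was 10.8 percentage points against WT and -4.17 percentage points with EV in place of WT. A summit within 1 kb of a gene start was found for 2.28% of K non-rep KO peaks and 1.20% of WT peaks, leaving out chromosome 8.

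Outside gene regions K non-rep KO had more peaks as well, 22997 in K non-rep KO against 16550 in WT, a ratio of 1.39, beside 2.14 inside them. Peak-rich windows with no gene showed the opposite. Windows of 1 Mb with 20 or more peaks, counting both lists, numbered 1113, and 69 of them held no protein-coding gene. The gene-free windows held 5536 peaks in K non-rep KO against 6322 in WT, a ratio of 0.876 (0.844 to 0.908). The 1044 windows with a gene held 39241 in K non-rep KO against 20128 in WT, a ratio of 1.95 (1.92 to 1.98). More peaks in WT than in K non-rep KO were found in 52 of the 69 gene-free windows and in 38 of the 1044 with a gene. Over the same gene-free windows the ratio to WT was 1.04 for K rep KO and 0.965 for EV. In windows with a gene the ratios to WT were 2.14 for K rep KO and 3.30 for EV. These ratios all share the WT list. Many of the gene-free windows with more peaks in WT lay at or beside centromeres. Examples were chr7:59000001-60000000, with 145 in K non-rep KO against 230 in WT, and chr8:44000001-45000000, with 110 in K non-rep KO against 161 in WT. The gene-free ratio therefore describes such peak-rich windows and not gene-free DNA in general.

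The 5 lowest windows were all gene-free and lay at or beside centromeres, where tandem repeats make read placement uncertain. The lowest, chr2:93000001-94000000, held 13 peaks in K non-rep KO against 37 in WT. Next came chr10:41000001-42000000 with 33 in K non-rep KO against 79 in WT, and chr15:19000001-20000000 with 26 in K non-rep KO against 56 in WT. The other two, chr2:92000001-93000000 and chr15:18000001-19000000, held 18 and 37 peaks in K non-rep KO against 32 and 65 in WT. Among the 5 highest windows were chr21:32000001-33000000 and chr3:127000001-128000000, each with 25 peaks in K non-rep KO against 2 in WT, and chr6:131000001-132000000 with 18 in K non-rep KO against 2 in WT. The chromosome 21 window holds HUNK, URB1 and SYNJ1, and the chromosome 3 window holds PLXNA1, a semaphorin receptor gene, and MCM2, a subunit of the replicative helicase. The chromosome 6 window holds ARG1, the liver arginase gene, and CCN2, a matrix growth factor gene. EV held 52 peaks in the chromosome 21 window, 30 in that of chromosome 3 and 26 in that of chromosome 6.

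**Figure D2:**
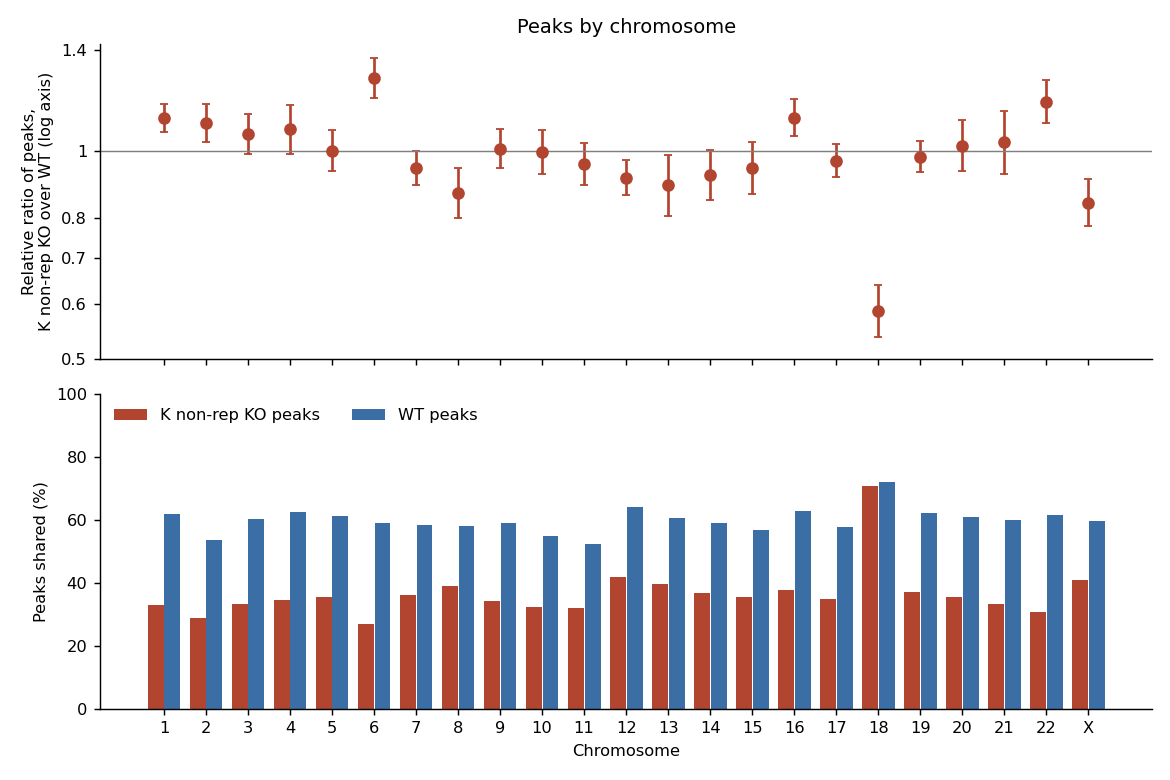
Top, K non-rep KO peaks over WT peaks on each chromosome divided by the ratio over all peaks (log axis, exact 95% intervals of counting error). Bottom, share of K non-rep KO and WT peaks that were shared (%); chromosome 18 stands lowest in the top panel at 0.587 and has near-equal shares in the bottom one, 70.5% of K non-rep KO peaks and 71.9% of WT peaks.

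By chromosome, the ratio divided by that over all peaks lay between 0.842 on X and 1.27 on chromosome 6 (1.19 to 1.36), with chromosome 18 apart at 0.587 (0.539 to 0.640). Chromosome 18 held 1059 peaks in K non-rep KO against 1038 in WT. Its peaks were wide, 941 bp at the median in K non-rep KO against 1117 bp in WT, and the background under their summits was 1.72 fragments at the median in K non-rep KO against 3.53 in WT. The part of that background in the chromosome 18 ratio was not tested. Many of the chromosome 18 peaks lay in gene-free windows at or beside the centromere, chr18:15000001-20000000. In order, these 1 Mb windows held 45, 132, 124, 109 and 131 peaks in K non-rep KO. In WT they held 58, 141, 142, 140 and 151. The chromosome 18 ratio without these windows was not computed. Against the same WT list, chromosome 18 stood at 0.560 in K rep KO and 0.454 in EV. Chromosome 11, which carries KCNQ1OT1, stood at 0.957 (0.892 to 1.03) in K non-rep KO and at 0.532 in K rep KO.

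Of 19974 protein-coding genes, 11026 held a K non-rep KO peak and 7326 a WT peak, 6545 of them both. More peaks in K non-rep KO were found in 8318 genes (41.6%), and fewer in 1464 (7.33%). Of the 1002 genes in which the lists together placed 10 or more peaks, 133 (13.3%) stood 2-fold or more above the ratio over all peaks and 38 (3.79%) 2-fold or more below it. Here the ratio was taken after adding 1 to each count. With peaks of −log10 q of 5 or more, 16 genes stood above and 2 below. Over the 133 genes the median number of peaks was 13 in K non-rep KO against 2 in WT, beside 12 in K rep KO, 12 in KD and 19 in EV. Over the 38 genes the medians were 5 in K non-rep KO against 8 in WT, beside 8 in K rep KO, 5 in KD and 10.5 in EV.

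**Figure D3:**
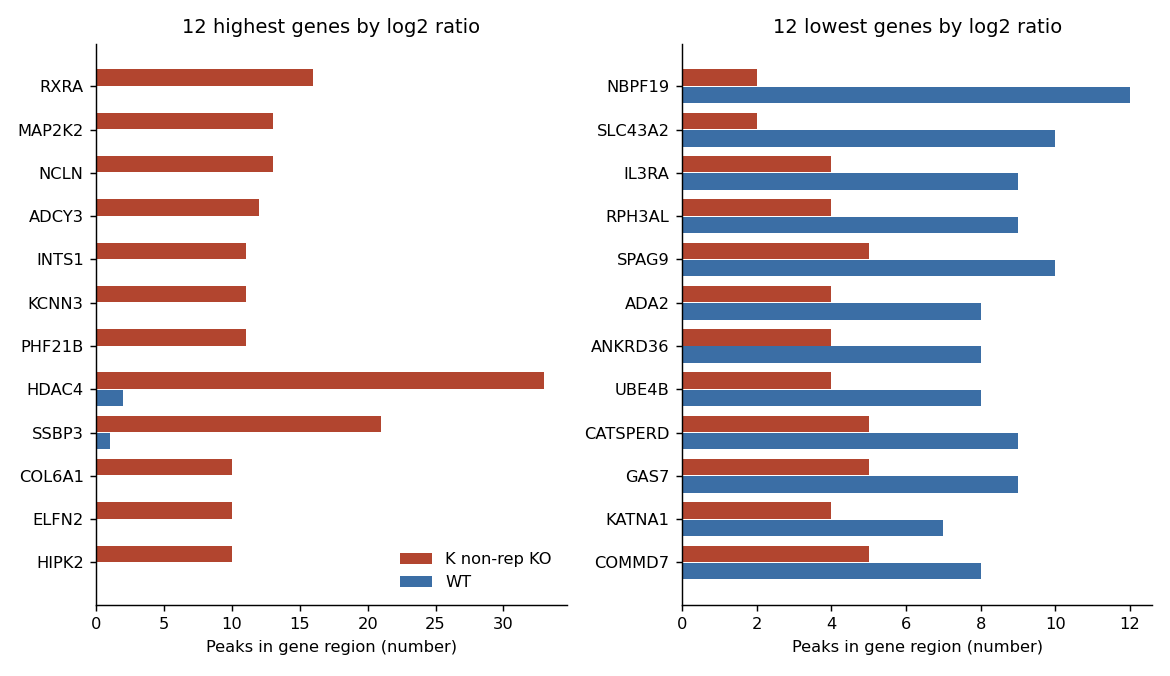
Number of peaks in the gene region (gene and 2 kb on either side) in K non-rep KO (upper bar) and WT (lower bar) for the 12 genes with the highest and the 12 with the lowest log2 ratio among the 1002 genes with 10 or more peaks. On the left, 10 genes have no WT bar; on the right, NBPF19 has 2 peaks in K non-rep KO against 12 in WT.

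RXRA stood highest among these genes. It encodes the retinoid X receptor alpha (chr9:134326455-134440585) and held 16 peaks in K non-rep KO against 0 in WT. These genes were picked by the counts themselves, so the intervals given with them describe counting error and support nothing. Its peaks covered 9041 bp and were small, the highest at chr9:134422161-134422991 with a fold enrichment of 6.43 and 12 fragments. K rep KO held 13, KD 23 and EV 29, so WT was alone among the 5 lists in having none. HDAC4, a class II histone deacetylase gene (chr2:239048168-239401649), held 33 peaks in K non-rep KO against 2 in WT, over 16769 bp in K non-rep KO against 849 bp in WT. The ratio was 16.5 (4.22 to 142), and both WT peaks were shared. SSBP3, which encodes a single-stranded DNA-binding transcription cofactor, held 21 in K non-rep KO against 1 in WT.

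MAP2K2, the MEK2 kinase gene (chr19:4090321-4124122), and NCLN, which encodes a membrane protein of the endoplasmic reticulum (chr19:3185930-3209575), each held 13 in K non-rep KO against 0 in WT. Per length NCLN was the densest of the 12, with 47.0 peaks per 100 kb in K non-rep KO against 0 in WT. It was followed by COL6A1, a collagen VI chain gene, at 36.7 per 100 kb in K non-rep KO against 0 in WT, and MAP2K2 at 34.4 in K non-rep KO against 0 in WT. The remaining genes of the 12 with no WT peak were ADCY3, an adenylyl cyclase gene, with 12 in K non-rep KO, INTS1 of the Integrator complex, KCNN3, a calcium-activated potassium channel gene, and PHF21B with 11 each, and ELFN2 and HIPK2, a nuclear kinase gene, with 10 each. KCNT1, MGAT5B, TOLLIP and UNC13D also held 10 in K non-rep KO against 0 in WT and came after these by symbol alone, so 14 genes in all had no WT peak. The highest fold enrichment in any of these 12 genes was 8.41, in NCLN at chr19:3190460-3191439 with 16 fragments. EV held more peaks than K non-rep KO in 10 of the 12 and fewer in NCLN, with 12, and ELFN2, with 7.

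The genes with fewest peaks in K non-rep KO relative to WT differed in kind. SLC43A2, an amino acid transporter gene (chr17:1569254-1630088), held 2 peaks in K non-rep KO against 10 in WT (ratio 0.200, 0.0213 to 0.939). Both K non-rep KO peaks were shared, and the one at chr17:1567166-1570774 had a fold enrichment of 13.7 on 41 fragments in K non-rep KO and 7.55 on 58 fragments in WT. SPAG9, which encodes a JNK scaffold protein (chr17:50962174-51120868), held 5 in K non-rep KO against 10 in WT, and its peak at chr17:51104703-51105856 had a fold enrichment of 15.52 on 64 fragments in K non-rep KO and 7.64 on 81 fragments in WT. At both sites the fold enrichment was higher and the pileup lower in K non-rep KO. RPH3AL, a gene of vesicle exocytosis, held 4 in K non-rep KO against 9 in WT, over 7482 bp in K non-rep KO against 8254 bp in WT. CATSPERD, a sperm calcium channel subunit gene, held 5 in K non-rep KO against 9 in WT, and its highest peak, at one site of chromosome 19 in both lists, had a fold enrichment of 10.7 in K non-rep KO against 13.7 in WT.

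UBE4B, a ubiquitin ligase gene, and ADA2, an adenosine deaminase gene, each held 4 in K non-rep KO against 8 in WT. GAS7 held 5 in K non-rep KO against 9 in WT, KATNA1, the microtubule-severing katanin subunit gene, 4 in K non-rep KO against 7 in WT, and COMMD7 5 in K non-rep KO against 8 in WT, as did DHTKD1 and PIGL, which came after COMMD7 by symbol alone. The ratio intervals of 10 of the 12 lowest genes included 1, and those of NBPF19 and SLC43A2 lay below it. NBPF19 held 2 in K non-rep KO against 12 in WT, and ANKRD36 4 in K non-rep KO against 8 in WT, but both belong to families of near-identical copies and their reads are uncertain. IL3RA, the interleukin 3 receptor alpha gene, held 4 in K non-rep KO against 9 in WT and lies in the pseudoautosomal region, where X and Y sequence cannot be told apart. Of these 12 genes, 11 had more peaks in EV than in K non-rep KO, and ANKRD36, with 2 in EV, had fewer.

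The genes with most peaks in K non-rep KO were long. MAD1L1, a spindle checkpoint gene (chr7:1815795-2232945), held 70 in K non-rep KO against 17 in WT, and 10 peaks of each list were shared. RPTOR, the mTORC1 scaffold gene, held 62 in K non-rep KO against 18 in WT, and GSE1 57 in K non-rep KO against 10 in WT. TBC1D22A held 50 in K non-rep KO against 8 in WT, and CELSR1, a cadherin gene of planar cell polarity, 43 in K non-rep KO against 8 in WT. In INPP5A, an inositol phosphatase gene, the peak at chr10:132622309-132623015 had a fold enrichment of 19.3 in K non-rep KO against 34.4 in WT. RAP1GAP2 had most peaks in WT, with 22 in K non-rep KO against 23 in WT over nearly equal lengths, 19231 bp in K non-rep KO against 19005 bp in WT. STX8, a syntaxin gene of endosome fusion, held 14 in K non-rep KO against 17 in WT.

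Gene lists were then compared by the number of peaks over their gene regions, relative to the same ratio over all protein-coding gene regions, 30399 peaks in K non-rep KO against 14182 in WT, or 2.14. For each list's ratio and its interval 0.5 was added to both counts. The lists were chosen with earlier results of these data known, and some hold genes named above by their counts. Their intervals therefore describe counting error and support nothing. Class II histone deacetylases had 43 peaks in K non-rep KO against 6 in WT, a relative ratio of 3.12 (1.36 to 8.56). More peaks were found in 4 of the 6 genes (66.7%) and fewer in 0, beside 41.6% and 7.33% over all protein-coding genes, but HDAC4 supplied 33 of the 43. HDAC5 held 6 in K non-rep KO against 3 in WT. HOX genes, which pattern the body axis, had 32 peaks in K non-rep KO against 5 in WT, a relative ratio of 2.76 (1.11 to 8.50), with more in 20 of 39 genes and fewer in 1. These shares, 51.3% and 2.56%, stand beside 41.6% and 7.33% over all genes. Some HOX gene regions overlap, so a peak can count in several of these genes. HOXB3 held 5 in K non-rep KO against 0 in WT, and HOXA3 held 3 in K non-rep KO against 0 in WT.

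Retinoid and related nuclear receptor genes, whose proteins act as ligand-bound transcription factors, had 61 peaks in K non-rep KO against 11 in WT, a relative ratio of 2.49 (1.32 to 5.17), with more in 15 of 23 (65.2%, against 41.6% over all genes) and fewer in 2 (8.70%, against 7.33%). Beside RXRA, PPARA, a fatty acid receptor gene, held 14 in K non-rep KO against 2 in WT. VDR, the vitamin D receptor gene, held 1 in K non-rep KO against 3 in WT. The 11p15.5 imprinted domain with its neighbours had 46 in K non-rep KO against 9 in WT, a relative ratio of 2.28 (1.12 to 5.18), with more in 12 of the 22 genes found (54.5%, against 41.6% over all genes) and fewer in 1 (4.55%, against 7.33%), KCNQ1OT1. MRPL23, a mitochondrial ribosomal protein gene, held 9 in K non-rep KO against 0 in WT, LSP1 6 in K non-rep KO against 1 in WT, and OSBPL5, a lipid-binding protein gene, 7 in K non-rep KO against 2 in WT. These genes are neighbours and some overlap, so their peaks are not separate observations. K rep KO against WT stood at 0.823 over this list. Among peaks of −log10 q of 5 or more, the intervals of these 4 lists all included 1. They stood there at 1.04 (0.0872 to 21.3) for 11p15.5, 1.30 (0.436 to 4.48) for class II histone deacetylases, 2.01 (0.664 to 7.63) for nuclear receptors and 3.53 (0.616 to 56.0) for HOX genes. The interval of 11p15.5 also included 1 with fold enrichment of 4 or more, at 2.46 (0.893 to 8.87), and with lists of equal length, at 1.87 (0.834 to 4.51). HOX genes stood at 6.52 (1.37 to 95.5) with fold enrichment of 4 or more.

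**Figure D4:**
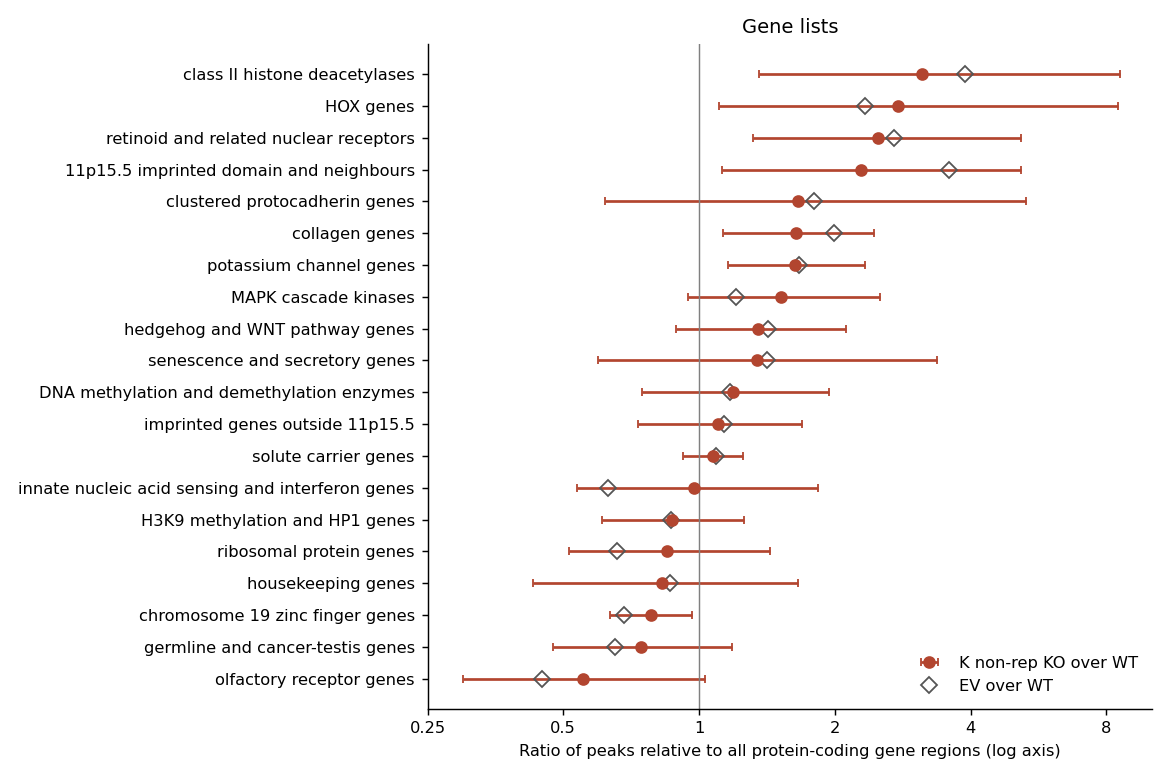
Ratio of peaks in 20 gene lists relative to the ratio over all protein-coding gene regions (log axis), with exact 95% intervals of counting error for K non-rep KO over WT (filled) and the value for EV over WT (open diamonds). The intervals of 6 lists lie above 1, led by class II histone deacetylases at 3.12. That of the chromosome 19 zinc finger genes lies below 1, at 0.782. The diamonds share the WT list. The lists were chosen with earlier results of these data known, so the intervals describe counting error and support nothing.

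Collagen genes had 128 peaks in K non-rep KO against 36 in WT, a relative ratio of 1.64 (1.13 to 2.44), and more peaks in 28 of 44 genes (63.6%, against 41.6% over all genes) and fewer in 3 (6.82%, against 7.33%). The collagen interval included 1 with −log10 q of 5 or more, at 1.27 (0.655 to 2.57), with fold enrichment of 4 or more, at 1.39 (0.843 to 2.36), and with lists of equal length, at 1.37 (0.891 to 2.12). COL5A1 held 18 in K non-rep KO against 3 in WT, COL23A1 19 in K non-rep KO against 5 in WT, and COL18A1 19 in K non-rep KO against 7 in WT. Potassium channel genes had 155 in K non-rep KO against 44 in WT, a relative ratio of 1.63 (1.16 to 2.33), with more in 50 of 95 (52.6%, against 41.6% over all genes) and fewer in 5 (5.26%, against 7.33%). With lists of equal length the potassium channel interval included 1, at 1.42 (0.967 to 2.10). KCNT1, a sodium-activated channel gene, held 10 in K non-rep KO against 0 in WT, and KCNJ4, an inward rectifier gene, 9 in K non-rep KO against 2 in WT. The median log2 ratio per gene was 1.00 for collagens, 0.58 for potassium channels, 1.00 for nuclear receptors, 0.90 for class II deacetylases, 0.58 for HOX genes and 0.79 for 11p15.5, against 0.00 over all protein-coding genes. Lists whose intervals included 1 had medians as high, 1.00 for DNA methylation enzymes and for protocadherins, 0.90 for MAPK kinases, 0.73 for hedgehog and WNT genes and 0.58 for imprinted genes of other loci. Of all 19974 protein-coding genes, 8167 held no peak in either list and so stood at 0.00. Among genes with 10 or more peaks the median was 1.00, so these medians also follow how many members held peaks. In EV against WT the lists whose intervals lay above 1 stood above 1 as well, from 1.67 for potassium channels to 3.88 for class II deacetylases.

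Chromosome 19 zinc finger genes, most of which encode transcriptional repressors, had 245 peaks in K non-rep KO against 146 in WT, a relative ratio of 0.782 (0.635 to 0.966). The interval included 1 with −log10 q of 5 or more, at 0.853 (0.608 to 1.20), with fold enrichment of 4 or more, at 0.787 (0.603 to 1.03), and narrowly with lists of equal length, at 0.790 (0.623 to 1.003). More peaks were found in 80 of 240 genes (33.3%) and fewer in 27 (11.3%), beside 41.6% and 7.33% over all genes. ZNF565 held 10 in K non-rep KO against 3 in WT, ZNF787 8 in K non-rep KO against 2 in WT, and ZNF850 1 in K non-rep KO against 3 in WT. Olfactory receptor genes had 25 in K non-rep KO against 21 in WT, a relative ratio of 0.553 (0.299 to 1.03), and 26 of the 390 held a peak in either list.

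The remaining lists had intervals that included 1. Genes of DNA methylation and demethylation enzymes had 67 peaks in K non-rep KO against 26 in WT, a relative ratio of 1.19 (0.748 to 1.94), with more in 12 of 17 (70.6%, against 41.6% over all genes) and fewer in 1. DNMT3A, a de novo methyltransferase gene, held 11 in K non-rep KO against 2 in WT, DNMT1, the maintenance methyltransferase gene, 9 in K non-rep KO against 1 in WT, and UHRF1, which encodes its recruiting factor, 13 in K non-rep KO against 8 in WT. MAPK cascade kinase genes stood at 1.52 (0.946 to 2.52), with more peaks in 17 of 24 genes (70.8%, against 41.6% over all genes) and fewer in 0 (against 7.33%), led by MAP2K2 and by MAP3K4 with 7 in K non-rep KO against 0 in WT. Hedgehog and WNT pathway genes stood at 1.35 (0.888 to 2.12), where GLI2, the hedgehog transcription factor gene, and WNT3A each held 9 in K non-rep KO against 0 in WT, and the WNT co-receptor gene LRP5 held 19 in K non-rep KO against 8 in WT.

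Imprinted genes of other loci stood at 1.10 (0.732 to 1.69), with WDR27 at 20 peaks in K non-rep KO against 5 in WT and DLGAP2 at 7 in K non-rep KO against 10 in WT. Clustered protocadherin genes, which share exons and hence peaks, had 19 in K non-rep KO against 5 in WT (1.65, 0.620 to 5.32). Senescence and secretory genes stood at 1.34 (0.596 to 3.36), solute carriers at 1.07 (0.921 to 1.25), genes of innate nucleic acid sensing and interferon at 0.973 (0.536 to 1.83) and H3K9 methylation and HP1 genes at 0.872 (0.611 to 1.26). Ribosomal protein genes stood at 0.851 (0.514 to 1.44), housekeeping genes at 0.828 (0.429 to 1.66) and germline and cancer-testis genes at 0.745 (0.475 to 1.18). Among solute carriers, SLC45A4 held 19 in K non-rep KO against 2 in WT, and SLC39A11, a zinc transporter gene, 16 in K non-rep KO against 2 in WT.

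**Figure D5:**
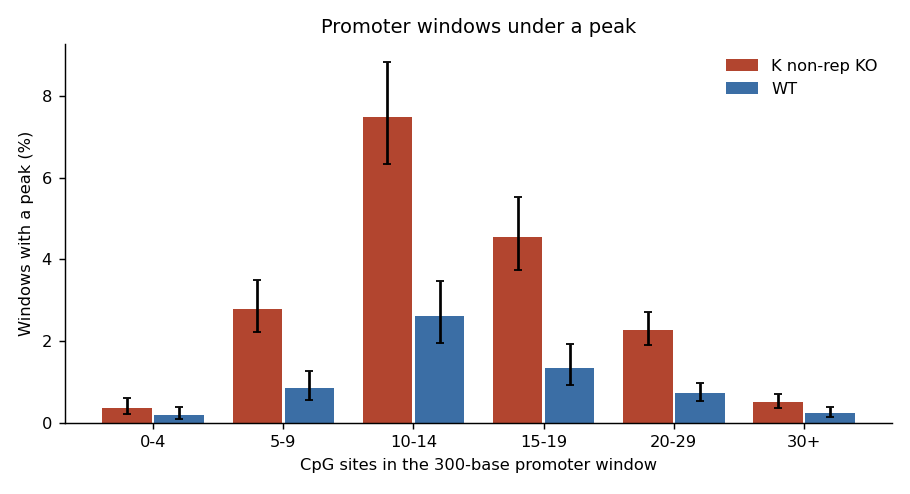
Share of promoter windows (300 bases) under a K non-rep KO or WT peak (%), by the number of CpG sites in the window, with Wilson 95% intervals. In both lists the share is highest at 10 to 14 CpG sites, 7.50% in K non-rep KO against 2.61% in WT, and at 30 or more sites it is 0.500% in K non-rep KO against 0.234% in WT.

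Promoters carried few peaks in either list. Windows that a peak overlapped only in part were counted too. Of the 22132 windows of 15812 protein-coding genes, 464 (2.10%) lay under a K non-rep KO peak and 156 (0.705%) under a WT peak. Peaks of K non-rep KO without WT covered 360 windows (1.63%), of WT without K non-rep KO 52 (0.235%), and of both 104. Counted by gene, 426 had a K non-rep KO peak at a promoter and 139 a WT peak, a ratio of 3.06 between numbers of genes. The windows under a peak had a median of 15 CpG sites in each of the 3 classes, against 21 over all windows. Of the 360 windows of K non-rep KO without WT, 37.8% lay under a peak in K rep KO and 51.9% in EV, and 93 in no other list.

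The promoters printed above are among those with the lowest deposited q-values of their class. The BARHL2 peak (chr1:90716285-90717372) had a fold enrichment of 7.42 and reached the downstream end of the window, and neither WT nor any other list had a peak there. The TIAM2 peak (chr6:154994228-154995152) had 7.37 and reached the upstream end, and K rep KO, at 5.51, and EV, at 2.90, had one as well. The KHDC1L peak (chr6:73224442-73225656) had 9.90 on 19 fragments in a CpG-poor window, and no other list had a peak over that window. The WT peak at ZNF585B (chr19:37209945-37211045) had 6.55 and covered the whole window, and no other list had a peak over it.

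Further K non-rep KO promoter peaks without WT lay at SUPT20HL2 with a fold enrichment of 13.4, at ENTHD1 with 7.51, at the histone genes H4C9 with 7.42 and H3-4 with 6.80, and at TAF11L5 and TAF11L6. The TAF11L genes are near-identical tandem copies whose reads are uncertain, and TAF11L7 had a promoter peak in both lists at 14.3 in K non-rep KO against 11.4 in WT. WT promoter peaks without K non-rep KO lay at SF3A3, a splicing factor gene, with 4.75, at ZSCAN12 with 4.92, at DCDC2 and DMRT1, a testis transcription factor gene, with 4.81 each, and at WDR93 with 3.83. These named WT peaks stood on 10 to 14 fragments, but others of the class were higher. At LOC124901638 the WT peak had 14.4 on 84 fragments, and at MIURF 5.35 on 16. The LOC124901638 peak overlapped a K non-rep KO peak beside the window. Among K non-rep KO promoter peaks without WT, that at LOC124901643 had 11.8 on 64 fragments and overlapped a WT peak beside the window.

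A few unshared peaks were strong. In RPS6KA2, a ribosomal S6 kinase gene, the K non-rep KO peak at chr6:166783857-166784183 had a fold enrichment of 20.9 on 49 fragments, and the nearest WT peak was 60851 bp away. K rep KO had a peak there too, and KD and EV did not. Peaks in FAM118B (chr11:126226128-126226531) at 13.4, PFKFB3, a glycolysis regulator gene (chr10:6206718-6207337), at 11.7, and DPP10 (chr2:114521834-114522142) at 12.1 were also found in K rep KO and EV. Among WT peaks without K non-rep KO, that in CABLES1 (chr18:23218303-23218679) had a fold enrichment of 12.9 on 37 fragments and that in PTDSS2, a phosphatidylserine synthase gene (chr11:458980-459418), 10.5 on 30. That in NCAPG2, a condensin subunit gene (chr7:158648479-158648961), had 11.2 on 32 fragments and was in no other list. Among the 10 shared regions with the lowest q-values in K non-rep KO, 1 lay in PTPRN2 (chr7:158146934-158149184), at 16.5 in K non-rep KO against 11.2 in WT, and 7 lay in gene-free stretches near the centromere of chromosome 1.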

How the data were processed

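The deposited peak lists, 1 per condition, were used with no replicate. The aligner Bowtie2, the peak caller MACS2, deepTools and the build GRCh38 are named per the submitters' processing notes; versions, settings and the pairing of IP with input are not given in these sources. Each deposited peak carries its position, a fold (ratio) of enrichment over background at the summit, a −log10 p-value, a −log10 q-value and a score, which the authors' peak caller wrote; the score equalled 10 times the −log10 q-value, cut to a whole number, in both lists compared. The authors normalised no value across lists, so fold enrichments of different lists rest on different depths. A peak list of another name matched no label and was not used (1 list).

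Peaks off chromosomes 1 to 22 and X (4.13% of K non-rep KO, 5.83% of WT) were left out. Overlap, covered length, gene regions (gene and 2 kb on either side, RefSeq annotation of GRCh38.p14) and promoter windows were computed with Python 3.11.15, numpy 2.4.6, pandas 2.3.3 and scipy 1.17.1, and plotted with matplotlib 3.10.9. A peak overlapping several genes counted in each, and once in a gene list. Fragments and background at a summit were solved from fold and p-value under a Poisson model with 1 added to both. A solution was found for 99.97% of K non-rep KO and 99.96% of WT peaks. IP depth was taken as the most common background divided by the shortest peak width, and input depth from the background's step size. Ratios have exact (Clopper-Pearson) and shares Wilson 95% intervals of counting error; neighbouring peaks are not independent, and PCR copies were not seen. The solving of fragments was checked on simulated data, and overlaps with a plain loop on a sample of peaks. The 2-fold gene calls were tried only on larger changes simulated in long genes. Wrong calls among unchanged genes were not counted, so the reliability of these calls is not known. The other steps were not checked in this way. No batch is recorded in the labels.

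The members and lists were chosen with earlier results of these data known. Named genes were the 12 highest and lowest by log2 ratio, with a pseudocount of 1, among genes with at least 10 peaks, fixed genes of 11p15.5, list members with the largest differences, the 5 highest and lowest windows, and the 10 unshared or shared peaks and 10 promoters of each class (5 with both) with the lowest q-values. The genes with most peaks and the split into gene-free windows and windows with a gene were added after their values were seen. Alternatives were −log10 q of 5 or more, fold enrichment of 4 or more, lists of equal length, no peaks of 2500 bp or more, all sequences, stricter overlaps, gene bodies alone, 20 or more peaks per gene, and EV in place of WT. Promoter windows on chromosome 8 and peak sequences were not analysed here. Of the 5 highest windows, 2 are not reported here.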

Additional observations from a re-analysis of the deposited data

How the results depend on the processing

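The ratio of peaks, 1.74, was 1.33 with −log10 q of 5 or more, 2.00 with fold enrichment of 4 or more, 1.00 with lists of equal length, 1.78 without peaks of 2500 bp or more, 1.71 on all sequences and 0.608 with EV in place of WT, where it reversed. The ratio of covered length, 1.27, was 1.04, 1.43, 0.883 and 1.37 under the first 4 of these and 0.618 with EV, so it reversed with lists of equal length and with EV. The shared percentage of K non-rep KO peaks, 35.4, was 45.1, 28.3, 45.7, 32.2 and 36.2 under the first 5 and 59.3 with EV, and 33.4 with an overlap of 50% of the shorter peak and 31.0 with the summit inside the other peak. That of WT peaks, 59.9, was 55.7 with fold enrichment of 4 or more, 45.8 with equal length, 56.5 without wide peaks, 56.8 with 50% overlap and 52.7 by summit, and that of EV peaks in their place was 35.5. The difference in share of peaks in gene regions was 9.08 points with −log10 q of 5 or more, 7.63 with fold enrichment of 4 or more, 9.84 with equal length and -4.17 with EV.

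Genes above the 2-fold threshold, 133, numbered 16 with −log10 q of 5 or more, 44 with fold enrichment of 4 or more, 79 with equal length, 73 with EV and 33 with at least 20 peaks. Genes below it, 38, numbered 2 with −log10 q of 5 or more, 22 with equal length, 134 with EV and 2 with at least 20 peaks. The median log2 ratio of fold enrichment, 0.16, was 0.19, 0.10 and 0.30 with −log10 q of 5 or more, fold enrichment of 4 or more and equal length, 0.14 with 50% overlap and -0.029 with EV. With EV the relative ratio turned to the other side of 1 for 11p15.5 (0.639), class II histone deacetylases (0.804), nuclear receptors (0.924), collagens (0.826), potassium channels (0.979) and chromosome 19 zinc finger genes (1.15). The cause of these changes was not tested. No paired analysis was possible because each condition has 1 list. Most unshared peaks stood on few fragments, and the part of depth in the differences was not tested.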
